A study of Mus musculus with 11 samples.

Results

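Peaks of H3K27me3 were compared between a CUT&Tag library that went through bisulfite conversion and one that did not, both made from 250000 mouse E14 embryonic stem cells. Every peak on chromosomes 1 to 19 in the 2 lists as used here was a member, 30249 in all of the 193978 peaks in the 11 single-sample lists of the series. The non-bisulfite list held 16738 of them and the bisulfite list 13511. A peak was called shared when it overlapped a peak of the other list by at least 1 bp, and otherwise was in that list only. All groups were cells of the same line, on a 129/Ola background, grown in serum with leukemia inhibitory factor (LIF), and the labels name no genetic change or drug. They name no separate culture for either preparation. Smaller bisulfite libraries for the same mark came from 100000, 20000 and 4000 cells, and libraries for H3K4me1 and H3K9me3 from 250000 cells, each given as run 1 and run 2, were used beside them. There was 1 library per preparation, so no test between preparations was possible. A standard deviation (SD) below is the spread over the 19 autosomes of that library, and intervals are 95% Wilson intervals that cover counting error only.

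H3K27me3 is the trimethylation of lysine 27 on histone H3. It is written by Polycomb repressive complex 2 (PRC2) and, in embryonic stem cells, covers the CpG-rich starts of silent developmental regulators, where DNA is mostly unmethylated. In CUT&Tag an antibody brings a protein A-Tn5 transposase to the mark, and the enzyme cuts the DNA nearby and adds adapters. In CUT&Tag-BS the adapters are methylated and the fragments are then treated with bisulfite, which turns unmethylated cytosine into uracil and leaves methylated cytosine, so each read reports both the mark and DNA methylation. The treatment also breaks DNA, and the control library skips it.

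By number the lists differed mainly in narrow peaks, and the most deeply read exceptions lay at the genes Gdnf, Lrat, Tifa and Fmn1. The 6 promoter windows printed next were chosen because they start genes whose peak stood in a single list. The first 4 belong to the peaks with the deepest bisulfite signal, and the last 2 to narrow CpG-dense peaks. Each is the RefSeq window of 250 bases before to 50 after a start (GRCm38.p6), 5′ to 3′ on the gene's strand, and capitals mark the motif CG, which reads the same on both strands.
Gdnf, chr15:7813477-7813776, + strand: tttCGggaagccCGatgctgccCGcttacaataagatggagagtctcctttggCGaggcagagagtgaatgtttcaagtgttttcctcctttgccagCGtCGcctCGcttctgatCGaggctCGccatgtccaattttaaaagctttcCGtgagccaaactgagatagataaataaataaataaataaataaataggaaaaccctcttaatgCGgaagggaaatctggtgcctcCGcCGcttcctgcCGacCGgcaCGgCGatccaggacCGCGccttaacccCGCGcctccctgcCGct
Lrat, chr3:82903925-82904224, - strand: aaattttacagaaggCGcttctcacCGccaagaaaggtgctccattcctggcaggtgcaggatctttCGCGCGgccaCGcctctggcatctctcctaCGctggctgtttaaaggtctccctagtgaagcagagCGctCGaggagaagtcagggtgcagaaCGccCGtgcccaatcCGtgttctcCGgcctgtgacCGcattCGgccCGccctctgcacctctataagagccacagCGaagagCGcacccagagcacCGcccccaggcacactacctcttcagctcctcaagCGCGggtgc
Tifa, chr3:127790407-127790706, + strand: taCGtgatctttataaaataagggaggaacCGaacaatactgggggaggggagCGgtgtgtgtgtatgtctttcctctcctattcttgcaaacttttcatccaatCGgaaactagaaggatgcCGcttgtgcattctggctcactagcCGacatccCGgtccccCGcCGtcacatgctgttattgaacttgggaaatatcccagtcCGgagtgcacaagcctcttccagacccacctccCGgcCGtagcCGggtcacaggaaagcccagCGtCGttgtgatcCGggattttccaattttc
Fmn1, chr2:113327486-113327785, + strand: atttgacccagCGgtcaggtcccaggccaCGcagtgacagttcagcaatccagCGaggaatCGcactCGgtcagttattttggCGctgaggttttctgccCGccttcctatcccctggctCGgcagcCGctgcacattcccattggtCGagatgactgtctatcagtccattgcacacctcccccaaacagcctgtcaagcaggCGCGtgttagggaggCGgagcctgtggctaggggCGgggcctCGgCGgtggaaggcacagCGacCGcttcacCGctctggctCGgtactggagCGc
Zfp280d, chr9:72274638-72274937, + strand: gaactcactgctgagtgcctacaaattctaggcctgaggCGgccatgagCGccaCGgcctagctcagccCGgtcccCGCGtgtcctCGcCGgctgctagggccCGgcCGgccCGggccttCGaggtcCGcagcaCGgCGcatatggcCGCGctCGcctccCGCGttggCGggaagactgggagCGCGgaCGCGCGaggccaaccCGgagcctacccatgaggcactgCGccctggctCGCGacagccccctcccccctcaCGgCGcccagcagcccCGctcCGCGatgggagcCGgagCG
Eif5, chr12:111537851-111538150, + strand: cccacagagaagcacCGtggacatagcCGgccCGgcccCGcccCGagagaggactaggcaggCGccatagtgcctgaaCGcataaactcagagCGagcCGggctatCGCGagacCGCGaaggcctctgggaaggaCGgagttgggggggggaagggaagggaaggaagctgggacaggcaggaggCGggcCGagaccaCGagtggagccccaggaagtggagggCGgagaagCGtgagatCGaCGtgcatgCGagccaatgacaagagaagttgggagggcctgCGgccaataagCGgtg

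These windows held 22 CGs for Gdnf, 21 for Lrat, 16 for Tifa, 21 for Fmn1, 37 for Zfp280d and 24 for Eif5. The median over the 31396 RefSeq windows on the same chromosomes was 7, and 94.75% of them held at least 1 CG. In the 250000-cell bisulfite library the Gdnf window had 1695 calls, of which 22 were methylated (1.30%, 0.859 to 1.96%). Of 1889 calls in the Lrat window 46 were methylated (2.44%), and of 620 in the Tifa window 50 were (8.07%). The Fmn1 window had 5 methylated calls of 708 (0.706%). The windows of the narrow peaks were read far less often: 62 calls at Zfp280d and 34 at Eif5, none of them methylated. Taking 3 calls as the limit that a count of 0 allows, their levels in the 250000-cell library could be up to 4.84% and 8.82%. In the 100000-cell library 5 of 61 calls at Zfp280d were methylated, a share above that limit, and 0 of 31 at Eif5. The limit for Zfp280d thus did not hold across libraries. These 6 windows were little methylated, while their read depth differed widely. Gdnf and Tifa each have a second RefSeq start inside the same peak, with fewer CGs (11 and 14) and higher levels (14.59 and 20.52%), whose window is not printed.

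Of the 16738 non-bisulfite peaks, 11828 were shared, or 70.67% (69.97 to 71.35%; SD 2.288 points, n = 19 chromosomes). Of the 13511 bisulfite peaks, 12772 were shared, or 94.53% (94.13 to 94.9%; SD 0.934). That left 4910 peaks, 29.3% of the list, found only without bisulfite and 739 peaks, 5.47%, found only with bisulfite. The ranges over chromosomes, 67.6 to 74.85% and 93.05 to 96.4%, did not overlap. By bases the difference was smaller: the 4910 peaks covered 7.247 Mb, 7.32% of their list, and the 739 peaks covered 0.8787 Mb, 1.101% of theirs. Taking the 13511 widest peaks of each list gave 82.79% and 89.91%, so the shares lay closer at equal list length.

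Shared peaks were wide and peaks of a single list were narrow. The median shared peak spanned 4964 bp without bisulfite and 3477 bp with it. Both single-list classes had a median of 1001 bp, the narrowest width in either list. That width was held by 50.41% of the peaks found only without bisulfite and by 81.73% of those found only with bisulfite, against 4.46% and 15.44% of the shared peaks. Among non-bisulfite peaks under 2000 bp, 4178 were in that list only and 2129 were shared. At 8000 bp and over 3 were in that list only and 3740 were shared. The bisulfite list had 3 single-list peaks in the widest bin and 3088 shared ones.

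**Figure D1:**
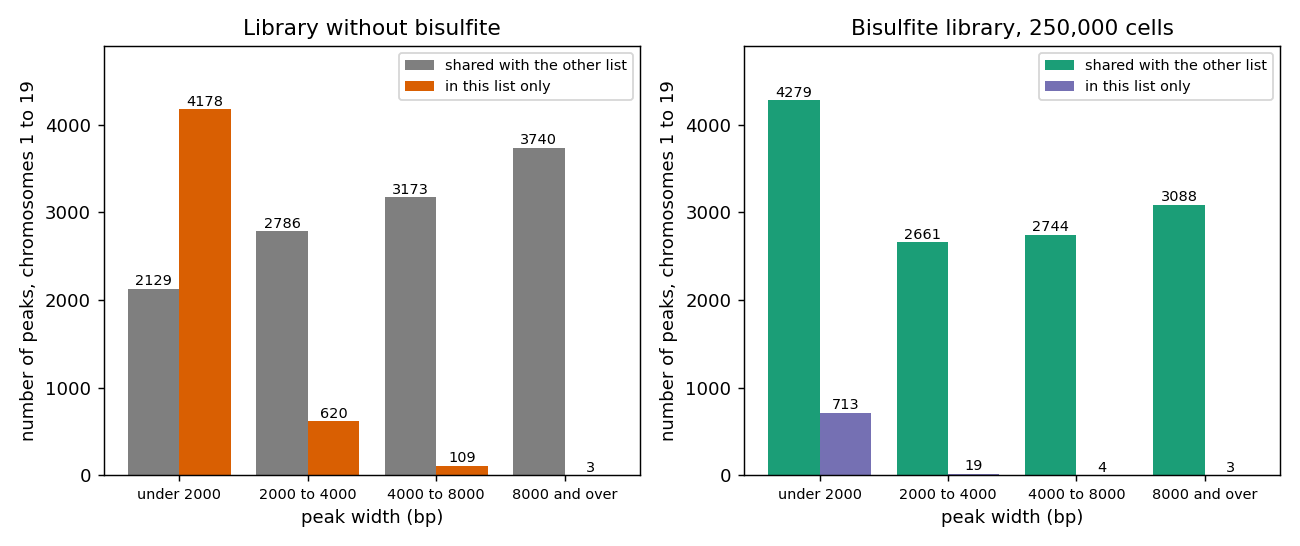
Number of peaks (vertical axis) by width in bp (horizontal axis) in the list without bisulfite (left) and the bisulfite list (right), split into peaks shared with the other list and peaks of that list only. Most single-list peaks sit under 2000 bp, 4178 of 4910 on the left and 713 of 739 on the right.

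The widest shared domains were the same loci in both lists. The Hoxc cluster, which holds homeobox genes for position along the body axis, carried the widest non-bisulfite peak, 247656 bp (chr15:102902161-103149816, mm10), and the bisulfite peak there was 174459 bp. At Hoxa the peaks were 129863 and 129311 bp, at Hoxb 135087 and 134832 bp, and at Hoxd with Evx2 127307 and 127045 bp. The domain at Cdkn1c, an imprinted cell-cycle inhibitor, was 205319 bp without and 174548 bp with bisulfite. Of the 10 widest shared peaks in each list, the 10 nearest genes were identical, and included Rhcg, Nkx1-1, Th, Six3 and Lmx1b. Methylation in the shared Hox peaks of the bisulfite list ran from 12.99% at Evx2 to 14.3% at Hoxc, whereas the peak at Th, the tyrosine hydroxylase gene, reached 80.03%.

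Within shared peaks the non-bisulfite edges reached further. A single bisulfite peak met 92.2% of the shared non-bisulfite peaks, 6.80% met 2 and 0.998% met 3 or more. The median shared non-bisulfite peak was covered to 83.75% by the other list, and the median shared bisulfite peak to 100%. Bases in both lists came to 76.92 Mb, 75.55% of all peak bases. A further 12.24 Mb lay in shared non-bisulfite peaks beyond the bisulfite edges, more than the 7.247 Mb of the peaks found only without bisulfite. In those edges the 250000-cell bisulfite library had 2.03 calls per CpG at 71.49% methylation, against 19.77 calls per CpG at 23.52% in the bases of both lists. Gaps between bisulfite peaks under 1 non-bisulfite peak covered 2.541 Mb at 78.64%.

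The closest peaks without overlap lay 10 to 53 bp from a bisulfite peak, near Ntm, Tmem87b, Pgbd5, Gask1a and Gga1, and had 1.29 to 2.81 calls per CpG. The shared non-bisulfite peaks with the fewest shared bases, 31 to 54 bp, lay near Lrrn2, Barhl1, 4921504E06Rik, Gm973 and Fbln2 and had 1.40 to 2.43. The members on either side of the threshold thus had overlapping read depths. Such borderline pairs were few: 2.53% of peaks found only without bisulfite lay within 1000 bp of a bisulfite peak, and the median gap was 12910 bp. For peaks found only with bisulfite the median gap was 3787 bp, and 18.54% lay within 1000 bp of a non-bisulfite peak.

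Single-list peaks were poorer in CpGs than shared ones. The median density was 12.99 CpGs per kb in peaks found only without bisulfite (SD 1.03 over chromosomes) against 17.15 in shared peaks of that list (SD 0.987), and 11.84 in peaks found only with bisulfite (SD 2.19) against 17.51 (SD 1.17). The single-list median was lower on 19 of 19 chromosomes in both lists. Among peaks of 1001 bp the medians were closer, at 12.99 and 13.99 CpGs per kb without bisulfite and 11.99 and 12.99 with it, for single-list and shared peaks. At this width these medians differ by 1 CpG. From 2000 to 4000 bp the difference was at least as large as over all widths, with 12.09 against 17.1 CpGs per kb in the non-bisulfite list (620 and 2786 peaks) and 10.89 against 18.11 in the bisulfite list (19 and 2661 peaks).

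Methylation was higher in the single-list peaks. In the 250000-cell library the pooled level, methylated over all calls, was 24.14% in shared non-bisulfite peaks (SD 1.83 over chromosomes) and 56.35% in peaks found only without bisulfite (SD 7.39). It was 23.6% in shared bisulfite peaks (SD 1.81) and 43.16% in peaks found only with bisulfite (SD 7.24). The single-list level was higher on 19 of 19 chromosomes in both lists. Averaging single CpG levels instead gave differences of 19.25 points without bisulfite, against 32.22 pooled, and 9.64 against 19.56 points with it. The 100000-cell library, which did not make the classes, gave 24.27%, 56.37%, 23.59% and 41.23% in the same order. The medians of single-peak levels, where 20 or more calls were present, were 39.13% (11654 peaks), 78.57% (3818), 40.52% (12457) and 68.21% (626). A level over 80% was held by 46.73% of these peaks found only without bisulfite and by 16.58% of the shared ones.

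**Figure D2:**
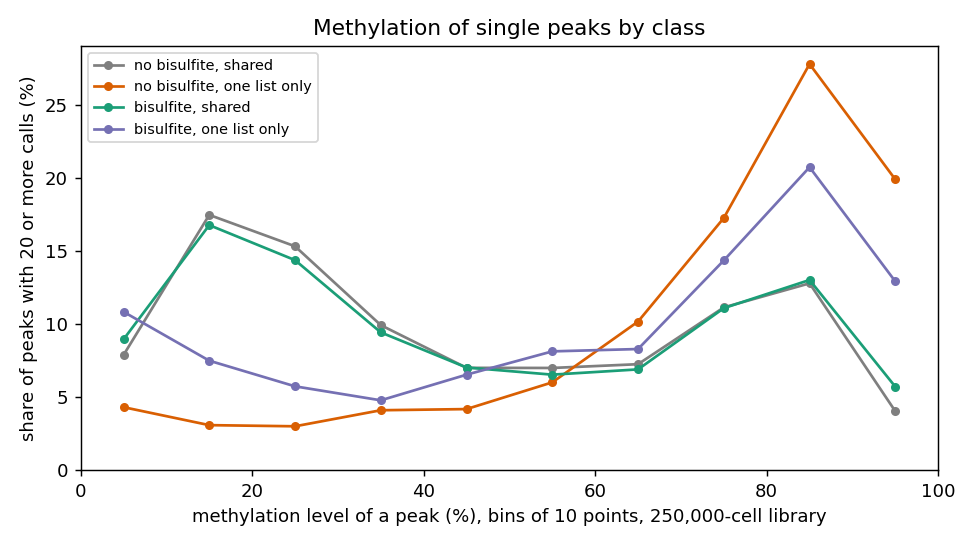
Share of peaks with at least 20 calls (vertical axis, percent) in bins of 10 points of methylation level in the 250000-cell bisulfite library (horizontal axis), with 1 line per class. The shared classes are highest from 10 to 20%, at 17.5 and 16.8%, and the single-list classes from 80 to 90%, at 27.84 and 20.77%.

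The excess was also present at 1001 bp in the pooled level of peaks found only without bisulfite. For those found only with bisulfite the pooled excess was small, and the median of single-peak levels went the other way. Among peaks of 1001 bp the pooled level was 59.17% in those found only without bisulfite and 37.92% in shared non-bisulfite peaks. For peaks found only with bisulfite it was 45.33%, and 44.16% in shared bisulfite peaks. The medians of single-peak levels, at 20 or more calls, were 65.52% only with bisulfite and 71.63% in shared bisulfite peaks. In the non-bisulfite list they were 77.55% and 55.85%, for single-list and shared peaks. CpG density split the pooled levels further. Under 10 CpGs per kb at this width, peaks found only without bisulfite had 80.08% (79.41 to 80.73%, 911 peaks) and shared ones 77.52% (76.23 to 78.76%, 188 peaks), a small difference. In the bisulfite list the levels there were 71.72% (257 peaks) and 79.2% (723 shared peaks). At 10 to 20 CpGs per kb and 1001 bp, peaks found only without bisulfite had 77.13% (76.67 to 77.58%, 1043 peaks) and shared ones 56.13% (55.14 to 57.12%, 169 peaks). In the same bin, peaks found only with bisulfite had 58.23% (57.33 to 59.12%, 221 peaks), below the 68.85% (68.38 to 69.32%, 666 peaks) of shared bisulfite peaks. At 20 to 40 CpGs per kb the levels were 49.64% and 36.01% in the non-bisulfite list and 37.06% and 37.43% in the bisulfite list, for single-list and shared peaks. At 40 CpGs per kb and over all 4 classes were low, from 5.53 to 11.55%. Calls on the same fragment are not independent, so these intervals are too narrow as a measure of peak to peak variation.

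The bisulfite library carried some excess of reads where it had no peak. In the peaks found only without bisulfite it had 2.47 calls per CpG against 1.20 in flanks of the same width outside H3K27me3 peaks, a ratio of 2.05, and 86.24% of these peaks stood above their own flank. The shared non-bisulfite peaks had 17.81 against 0.897, a ratio of 19.85. Because the classes were made from peaks of this library, these values are a description. In the 100000-cell library the ratios were 18.39 in shared non-bisulfite peaks, 2.15 in peaks found only without bisulfite, 19.63 in shared bisulfite peaks and 3.07 in peaks found only with bisulfite. The 20000-cell library gave 17.84, 2.14, 19.19 and 3.09, and the 4000-cell library 17.04, 2.39, 18.31 and 2.38. The order of shared over single-list peaks was thus present at every cell number.

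Width entered these ratios too. For peaks of 1001 bp the 100000-cell ratios were 3.25 in shared non-bisulfite peaks and 1.82 in peaks found only without bisulfite, and 3.05 in shared bisulfite peaks and 2.37 in peaks found only with bisulfite. The median peak of that width had 2.24, 1.56, 2.40 and 1.88 calls per CpG there, and the middle 50% of peaks, 1.67 to 3.16, 1.08 to 2.13, 1.75 to 3.22 and 1.33 to 2.55, overlapped between all classes. At their centres methylation dipped in each class. In the first 250 bp past the centre it was 31.31%, 55.48%, 37.48% and 35.05% in that order, and 71.76 to 77.17% in the bin centred 2125 bp past it.

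**Figure D3:**
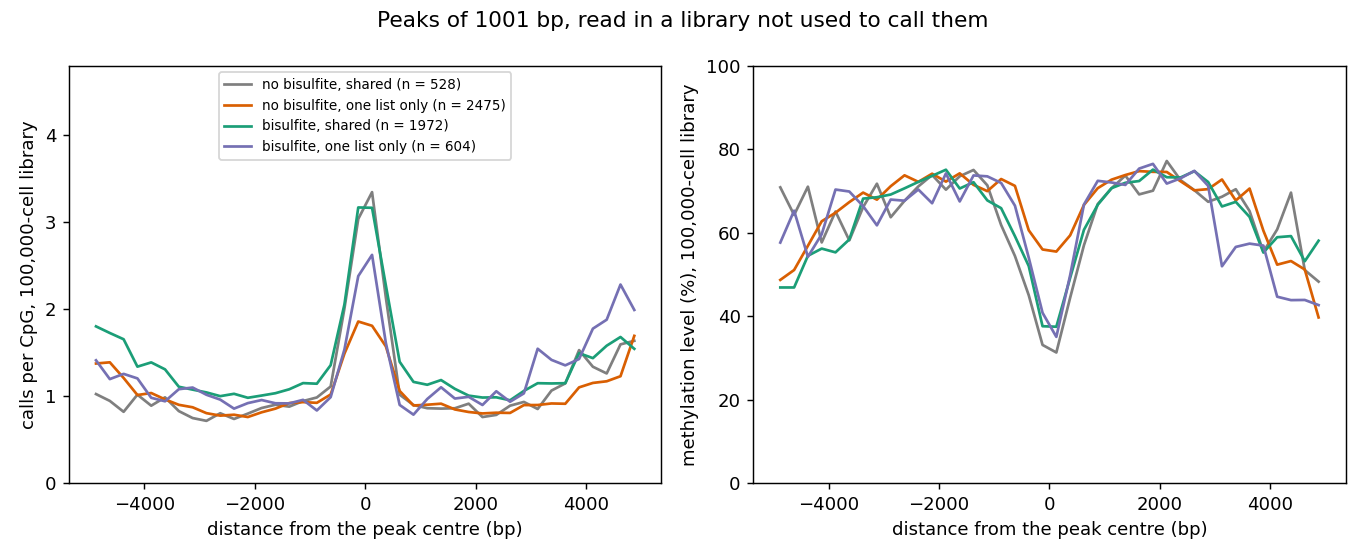
Calls per CpG (left) and methylation level in percent (right) in the 100000-cell bisulfite library by distance from the centre of 1001-bp peaks in bp (bins of 250 bp), with 1 line per class pooled over its peaks. Peaks found only without bisulfite have the lowest central height, 1.86, and the shallowest dip, to 55.48%.

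Peak calls in the 100000-cell library followed the same order. The 100000-cell list overlapped 84.18% of shared non-bisulfite peaks and 9.78% of the peaks found only without bisulfite (480 of 4910). It overlapped 81.81% of shared bisulfite peaks and 16.24% of those found only with bisulfite (120 of 739). For peaks of 1001 bp the shares were 33.14%, 4.61%, 35.8% and 13.91%. The 20000-cell list overlapped 48.77% of shared non-bisulfite and 45.83% of shared bisulfite peaks, 13 of the 4910 peaks and 16 of the 739. The 4000-cell list overlapped 3.56% and 3.30% of the shared peaks, and 2 and 3 of the others. At 1001 bp these 2 lists held few peaks of any class. There the shares were 1.33% of peaks found only with bisulfite (8 of 604) and 1.116% of shared bisulfite peaks (22 of 1972) in the 20000-cell list, whose intervals overlap, and 2 and 1 peaks in the 4000-cell list.

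Narrow peaks also stood above their flanks in libraries made with other antibodies. For peaks of 1001 bp the H3K4me1 bisulfite library (the run labelled 2) gave ratios of 2.43 in shared non-bisulfite peaks, 1.78 in peaks found only without bisulfite, 2.41 in shared bisulfite peaks and 2.28 in peaks found only with bisulfite. The H3K9me3 library (run 2) gave 2.22, 1.77, 1.65 and 3.15. In the peaks found only without bisulfite, the ratio in the 100000-cell H3K27me3 library, 1.82, thus stood beside 1.78 and 1.77 for the other marks. The 20000-cell and 4000-cell H3K27me3 libraries gave higher ratios there, 1.88 and 2.35, the last from 1315 calls. In peaks found only with bisulfite the H3K9me3 ratio exceeded the 100000-cell H3K27me3 ratio of 2.37. The 20000-cell and 4000-cell libraries gave 2.55 and 2.24 there. Without the 12 peaks that overlap an H3K9me3 unified peak the H3K9me3 ratio was 2.66. Run 1 of H3K9me3, with fewer calls, gave 2.50 there with all peaks and 2.02, below 2.37, without those 12. The H3K9me3 depth in these peaks was low: 321 of 604 held a call in run 2 and 202 in run 1. For the peaks found only without bisulfite run 1 gave 1.59, and without the peaks that overlap an H3K9me3 unified peak the runs gave 1.55 and 1.67. These libraries share the cell line and the method, and their part in the peak calls was not tested. Over peaks of all widths the H3K9me3 ratio was 0.593 in shared non-bisulfite peaks, 1.30 in peaks found only without bisulfite, 0.589 in shared bisulfite peaks and 2.34 in peaks found only with bisulfite.

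**Figure D4:**
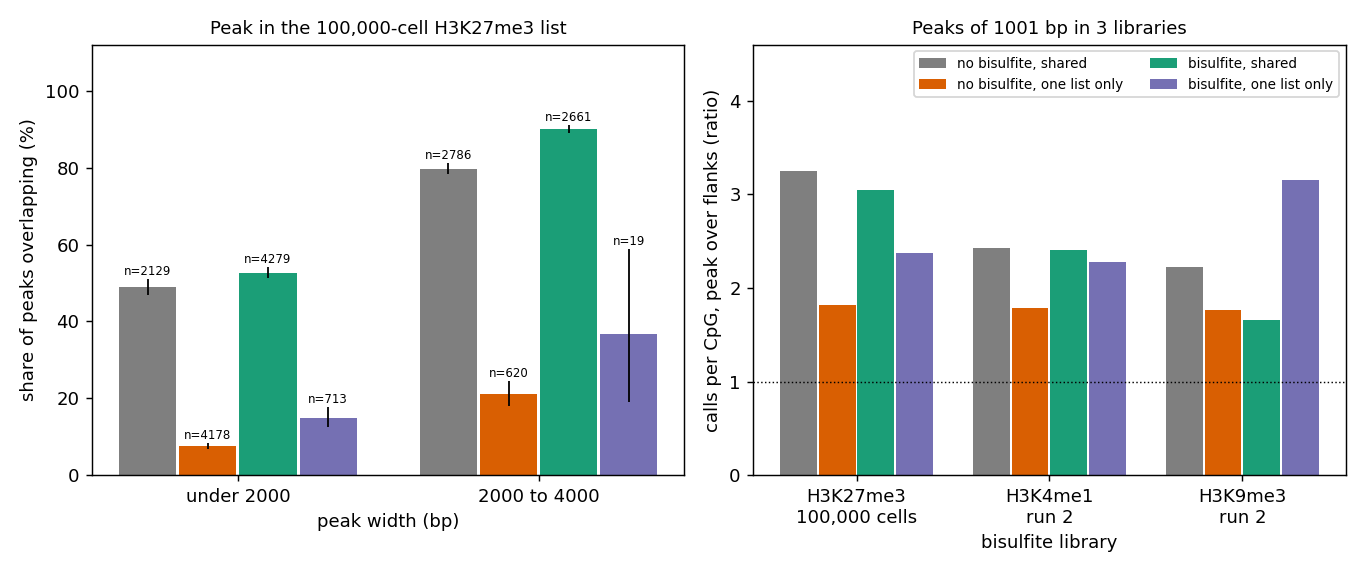
Left, share of peaks of each class (percent, bars with 95% Wilson intervals) overlapped by the 100000-cell H3K27me3 list, for peaks under 2000 bp and from 2000 to 4000 bp. Right, calls per CpG in 1001-bp peaks over their flanks (ratio, dotted line at 1) in 3 bisulfite libraries. Peaks found only without bisulfite lie between 1.77 and 1.82 in these 3. Of libraries not plotted, run 1 of H3K9me3 gave 1.59, and H3K27me3 from 20000 and 4000 cells gave 1.88 and 2.35.

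H3K4me1, which marks enhancers and the sides of promoters, met the classes unequally. Its unified peaks overlapped 30.09% of shared non-bisulfite peaks, 7.96% of those found only without bisulfite, 28.05% of shared bisulfite peaks and 13.8% of those found only with bisulfite. At 1001 bp the shares were 13.45% (10.8 to 16.62%), 7.23% (6.28 to 8.32%), 11.92% (10.56 to 13.42%) and 13.74% (11.22 to 16.72%). The lower share in peaks found only without bisulfite was also present at 1001 bp, and the difference within the bisulfite list did not exceed its counting intervals. When H3K4me1 peaks had to cover 50% of a peak, single-list minus shared was -0.83 points without bisulfite, against -22.13 for any overlap. With bisulfite it was 3.60 against -14.24 points. H3K9me3, a mark of heterochromatin, met 1.61%, 0.489%, 1.33% and 1.89% of the 4 classes, the last being 14 peaks of 739.

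Single-list peaks seldom stood at gene starts. A protein-coding gene start lay within 1000 bp of 44.68% of shared non-bisulfite peaks (SD 3.81) and of 8.57% of the peaks found only without bisulfite (421 of 4910; SD 1.93). The shares were 41.03% (SD 3.62) and 9.20% (68 of 739; SD 4.55) in the bisulfite list. Outside genes lay 53.08% of the peaks found only without bisulfite and 56.02% of those found only with bisulfite, against 30.98% and 32.62% of the shared classes. At 1001 bp the shares at starts were closer, 12.88% and 6.51% without bisulfite and 13.03% and 9.27% with it. The 421 peaks at starts had a median of 27.37 CpGs per kb and a pooled 22.07% methylation, to which the Gdnf peak gave 31855 of 77628 calls, and the other 4489 had 12.02 and 69.87%. The 68 peaks found only with bisulfite at starts had 29.97 CpGs per kb and 23.53%, and the other 671 had 10.99 and 55.85%. Of the 23316 calls in the 68, the Lrat and Tifa peaks gave 7293 and 5343.

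Most of the 10 most CpG-dense peaks of each single-list class lay at gene starts. Those found only without bisulfite included Lrrc8d, a subunit of volume-regulated anion channels, with 124.9 CpGs per kb and 1 methylated call of 314. Zfp280d, a zinc finger gene, had 119.9 per kb and 1 of 242, and Rras2, a Ras-related GTPase, had 101.9 per kb and 4 of 244. Among those found only with bisulfite, Eif5, a translation initiation factor, had 126.9 per kb and 12 methylated calls of 418, and Stk3, a kinase of the Hippo pathway, 77.92 per kb and 2 of 255. The exceptions were the dense bisulfite peaks nearest to Mier3 (70.93 per kb) and BC048671 (72.93 per kb), 38827 and 6514 bp from a start. The 5 peaks at starts named so far were 1001 bp wide, and of them only Rras2 overlapped the 100000-cell list, by 795 bp. Among the other dense start peaks, Ttc14 and Sipa1l2 overlapped it by 1001 bp each, Ube2q2 by 1812 bp and Tsga10 by 893 bp, and the rest did not. The Ube2q2 and Sipa1l2 peaks were 2642 and 1863 bp wide. Peaks at the other extreme were methylated at every call: one 1001-bp peak found only without bisulfite had 52 of 52. It lay outside genes, 226256 bp from the nearest start, that of Pou3f1.

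The Gdnf domain departed from its class. Gdnf encodes a neurotrophic factor that signals through Ret in kidney and neurons. Its peak without bisulfite (chr15:7803003-7825989, mm10) was 22987 bp wide, and the nearest bisulfite peak used here lay 316064 bp away. The 250000-cell bisulfite library nevertheless had 61.5 calls per CpG there against 0.597 in the flanks, with 16.85% methylated (16.45 to 17.27%). That depth exceeded 3732 of the 3743 non-bisulfite peaks of at least 8000 bp. The 100000-cell library had 36.92 calls per CpG and its list as used here held no peak there, whereas the 20000-cell and 4000-cell lists covered 15214 and 3701 bp of the domain. No other peak found only without bisulfite passed 7.21 calls per CpG. Without the Gdnf peak the level of the class differed from that of shared peaks by 37.4 points rather than 32.22, and its ratio to flanks was 1.82 rather than 2.05. On chromosome 15, which it dominates, the class level was 31.65%, the lowest of the 19.

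Several wide domains stood in the bisulfite list only, and the 4 described here were also in the 100000-cell and 20000-cell lists. Lrat, which esterifies retinol for storage, lay in a 22054-bp peak (chr3:82899184-82921237) with 34.56 calls per CpG and 25.05% methylation, covered over 20376 bp by the 100000-cell list and 8423 bp by the 20000-cell list. Tifa, an adaptor of innate immune signalling, lay in an 8223-bp peak (chr3:127785738-127793960) with 34.03 calls per CpG and 34.76%. Fmn1, an actin-nucleating formin, had a 3180-bp peak (chr2:113327075-113330254) with 1080 calls over 54 CpGs and 7.41% methylation. The nearest non-bisulfite peaks were 17446, 20510 and 106224 bp away. The lists used here may not hold every row the authors called, so at Gdnf, Lrat, Tifa and Fmn1 a single list means only that the other list has no row there. A 19635-bp peak nearest to Gm11677 was sparser and more methylated, with 8.58 calls per CpG and 73.13%. In all, 7 of the 739 peaks had 10 or more calls per CpG. The non-bisulfite library has peak positions only, so its read depth at these loci was not analysed here.

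Most genes of each developmental list had the mark in both peak lists. Over all 20661 protein-coding genes, 27.6% had a peak of both lists within 1000 bp of a start, 2.74% of the non-bisulfite list only (566 genes) and 0.426% of the bisulfite list only (88 genes). Of the 566, 426 met a peak found only without bisulfite and 140 met a shared peak whose other member did not reach the window. All 39 Hox genes, all 5 Gata genes and all 19 Wnt ligand genes had both. So did 69 of 70 other homeobox genes, 25 of 28 forkhead, 12 of 13 Sox, 28 of 34 bHLH, 11 of 15 T-box, 8 of 9 Pax, 16 of 20 Fgf and 19 of 28 Bmp and Tgfb ligand genes, and 50 of 52 potassium channel genes. Low shares were found for pluripotency genes, 2 of 23 (Esrrb and Prdm14), housekeeping genes, 2 of 32 (B2m and Gusb), and olfactory receptors, 0 of 19.

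**Figure D5:**
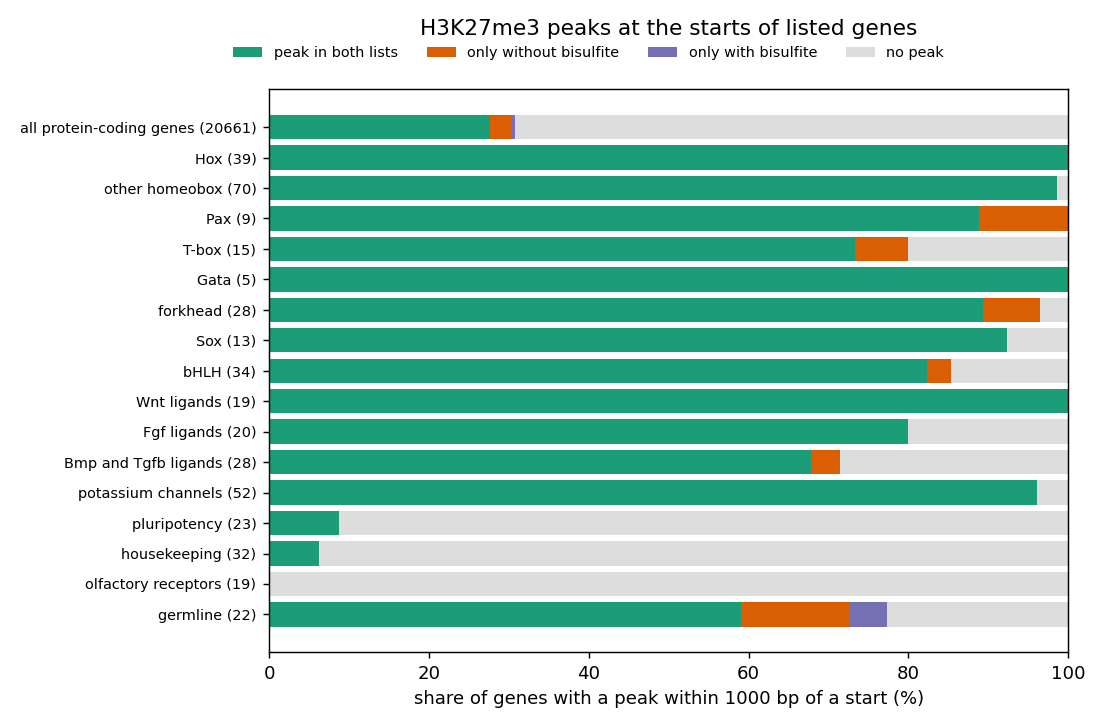
Share of genes (horizontal axis, percent) of each list (vertical axis, number of genes in brackets) with an H3K27me3 peak within 1000 bp of a start in both lists, in 1 list or in none. Single-list colours are absent or thin for most lists and widest for germline genes, 3 and 1 of 22, and for Pax, 1 of 9.

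Across all lists 10 of 426 genes had the mark at the start in a single list, 9 without and 1 with bisulfite. These shares, 2.11% and 0.235%, were no higher than the 2.74% and 0.426% of all protein-coding genes. The start of Pax4, a regulator of endocrine pancreas, lay 429 bp from a shared non-bisulfite peak of 9765 bp. The start of Foxd3, of neural crest and pluripotent cells, lay inside a shared non-bisulfite peak of 8226 bp. No bisulfite peak came within 1000 bp of either start. The starts of Pax4, Msc and Gdf5 were taken from CpG density, as no strand was at hand for them. Each may thus be the other gene end. With a window of 2000 bp both lists reached Pax4 and Foxd3. The other 7 met peaks found only without bisulfite. Msc, a bHLH repressor, had a 1001-bp peak with 2 methylated calls of 181, and Gdf5, a joint-forming ligand, one with 36 of 77. Tbx10 and Foxi1, an inner ear and kidney factor, had peaks methylated at 65 of 82 and 80 of 83 calls.

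Germline genes, many of which are silenced by promoter methylation outside germ cells, gave 4 of the 10. Of 22 on the list, 13 had peaks in both lists, 3 only without bisulfite (Mael, Tex19.1 and Tuba3b) and 1 only with bisulfite (Mov10l1), beside 27.6%, 2.74% and 0.426% of all protein-coding genes. Mael, of the piRNA pathway, had 86 methylated calls of 164 (52.44%). Tex19.1, which restrains retrotransposons in germ cells, had 77 of 138 (55.8%), and Tuba3b, an alpha-tubulin gene, 95 of 105 (90.48%). Mov10l1, the piRNA-pathway helicase gene, lay in a 5067-bp peak with 350 of 490 (71.43%), and the 100000-cell list covered 2923 bp of it. The median level of single-list peaks at starts was 26.32% (middle 50% of peaks 5.78 to 67.83%) only without and 7.41% (2.75 to 56.36%) only with bisulfite. Mael and Tex19.1 lay within the middle 50% of their class, and Tuba3b and Mov10l1 above that of theirs. Of the start peaks with 20 or more calls, 15.58% only without and 13.85% only with bisulfite had levels over 80%. The germline list was chosen with earlier results known.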

How the data were processed

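CUT&Tag libraries of mouse E14 cells were made with and without bisulfite. Per the submitters' processing notes, the authors used cutadapt 1.12, Bismark 0.23.0, Bowtie2 2.3.0, HOMER 4.10.3 and bedtools 2.29.2 with the build mm10. The treatment of duplicate reads is not given in the sources used here. The deposited counts are methylated and all calls per CpG, unnormalized, for the 8 bisulfite libraries. The deposited peak lists give positions without scores, 1 list per sample. The H3K27me3 libraries held 37177077 (250000 cells), 24468360, 5019897 and 378056 (4000 cells) calls, of which 36558653 of the first lay on chromosomes 1 to 19. Each per-sample count column was used.

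Overlaps, CpG densities, calls per CpG and levels were computed in Python 3.11.15 with numpy 2.4.6 and pandas 2.3.3, and the interval code was tested on simulated data. Flanks had the width of the peak on each side, without bases of H3K27me3 unified peaks. Gene starts came from RefSeq (GRCm38.p6): from the strand for 16456 of 20661 genes, otherwise the gene end with more CpGs (4205 genes). All 298695 CGs in the RefSeq promoter windows matched a CpG of the table. Of 8 genes looked up among the RefSeq promoters, 7 matched and Ttc14 did not. Named peaks are, per class, the 10 widest, the 10 most CpG-dense, the 5 with the highest and lowest level at 50 or more calls, the 5 pairs nearest the overlap rule on either side, and listed genes with a start in 1 list; peaks shared with the 20000-cell list were added after their values were seen. The members and gene lists were chosen with earlier results of these data known. Alternatives were a 50% overlap, equal list lengths, width bins, call minimums, a wider window and, added after seeing the data, peaks of 1001 bp and leaving out the widest peak.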

Additional observations from a re-analysis of the deposited data

How the results depend on the processing

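No paired analysis was possible because each preparation had 1 H3K27me3 library and the result comes from no test. Of 62 alternatives, 33 left the value within the spread over chromosomes or its counting interval, 25 moved it further and 4 turned its direction. Requiring 50% of a peak to be covered by the other list gave 62.06% of non-bisulfite and 93.18% of bisulfite peaks shared. Equal list lengths gave 82.79 and 89.91%. With that 50% rule the median width in peaks found only without bisulfite was 1312 bp. At 50% cover their difference from shared peaks in 100000-cell support was -62.19 points. For the other marks the 50% had to be covered by that mark's peaks, which is a different rule and harder to meet for wide peaks. Under it the H3K4me1 difference in peaks found only without bisulfite was -0.83 points. H3K9me3 overlap in those peaks turned to 0.02996 points above shared peaks. H3K4me1 overlap in peaks found only with bisulfite turned to 3.603 points above.

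Restricting to peaks of 1001 bp moved 5 of the differences in each list. For peaks found only without bisulfite, single-list minus shared came to -0.999 CpGs per kb, 21.25 points of methylation, -6.215 points of H3K4me1 overlap, -28.54 points of 100000-cell support and -6.374 points at gene starts. For peaks found only with bisulfite these were -0.999, 1.171, 1.825 (direction turned), -21.89 and -3.761. The methylation values here are pooled levels, and with bisulfite the median of single-peak levels was lower in single-list peaks. From 2000 to 4000 bp the density differences stayed at -5.01 and -7.228 CpGs per kb in the 2 lists. There the H3K4me1, support and gene-start differences were -14.98, -58.63 and -23.06 points in peaks found only without bisulfite and -2.548, -53.27 and -25.32 in peaks found only with bisulfite (19 peaks), and H3K9me3 turned to -1.127. Averaging single CpG levels gave 19.25 and 9.638 points of methylation, and CpGs with at least 5 calls gave 21.5 in peaks found only without bisulfite. The causes of these shifts were not tested, beyond width where the alternative fixes it. Depth is known for the bisulfite libraries only, peaks carry no scores, and the lists' lengths differ, so a peak missing from a list does not show that the mark was absent.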
